A study of Mus musculus with 8 samples.

Results

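Spi1, Maf, Cebpa, Cebpb, Irf8, Irf4, Zeb2, Klf4 and Bhlhe40, 9 transcription factors of macrophage identity and of myeloid lineage choice, were taken by gene symbol from the table of 23469 genes. All 9 had a row, and all 9 were among the 8801 genes tested. The table covers 8 Smart-seq2 libraries of macrophages from the malignant ascites of mice with ovarian cancer, 4 of AeEMs and 4 of AeMMs. AeEMs are the tdTomato-negative macrophages, taken as embryonic in origin, and AeMMs are the tdTomato-positive macrophages, taken as monocyte-derived. Both groups came from female C57BL/6 mice of the Ms4a3Cre-RosaTdT strain (Ms4a3TdT in the labels). They had been given ID8 cells, a line from mouse ovarian surface epithelium, intraperitoneally at 4 to 5 weeks of age, and ascites was collected 65 days after injection. The labels give no further treatment. In this strain Cre is driven from Ms4a3, a gene of granulocyte-monocyte progenitors, so their progeny carry tdTomato and the sort divided the cells by that history. In both groups the gate kept CD45+ F4/80+ CD11b+ cells and removed cells with Ly6G, SiglecF or Ly-6C.

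These factors act at successive steps of myeloid development. PU.1, encoded by Spi1, is the ETS factor that opens myeloid enhancers and is needed for all macrophages. C/EBPα directs progenitors into the granulocyte-monocyte path, and C/EBPβ acts later, in monocyte survival and in the response of macrophages to stimuli. IRF8 and KLF4 are needed for monocytes, IRF8 and IRF4 divide the dendritic cell lineages, and ZEB2 is a repressor that helps keep the identity of tissue macrophages. c-MAF, encoded by Maf, limits self-renewal and drives Il10 and complement genes, whereas BHLHE40 represses Maf in large peritoneal macrophages and favours their proliferation.

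The promoters of Cebpb and Klf4 are shown because these genes had the most negative and the most positive difference of the 9, as described below. Of the 9 genes, 6 matched a RefSeq promoter of GRCm38.p6, each window running from 250 bases before to 50 bases after a transcription start. The Cebpb window is chr2:167688665-167688964 on the plus strand, and its capitals mark TGACG on either strand, the half-site of CREB and ATF factors. The Klf4 window is chr4:55532426-55532725 on the minus strand, and its capitals mark CACGTG, the E-box that BHLHE40 binds.
Cebpb: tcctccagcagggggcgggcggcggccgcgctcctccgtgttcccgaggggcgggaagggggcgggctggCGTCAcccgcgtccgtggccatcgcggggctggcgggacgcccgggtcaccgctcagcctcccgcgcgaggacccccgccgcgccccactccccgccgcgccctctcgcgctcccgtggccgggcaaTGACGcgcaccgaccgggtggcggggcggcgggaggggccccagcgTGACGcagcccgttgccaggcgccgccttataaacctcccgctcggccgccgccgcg
Klf4: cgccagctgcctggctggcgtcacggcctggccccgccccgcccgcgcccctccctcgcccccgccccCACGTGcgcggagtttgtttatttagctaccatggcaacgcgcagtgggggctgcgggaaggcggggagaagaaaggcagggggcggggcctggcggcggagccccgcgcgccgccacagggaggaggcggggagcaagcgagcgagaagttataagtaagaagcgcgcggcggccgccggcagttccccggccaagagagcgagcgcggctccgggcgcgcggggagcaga
TGACG was found 3 times in the Cebpb window, and 20.8% of all 32851 RefSeq windows of 300 bases hold it at least once. CACGTG was found 1 time in the Klf4 window and is held by 7.15% of the windows. Each match describes letters in a window and was not measured as a binding site.

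Values are on the deposited scale, log2(TPM + 1), where TPM (the scaled share of transcripts) is corrected for gene length. Back-transformed TPM summed to 958839 to 974278 per library, and 8498 to 8753 genes reached 1 TPM. No read counts were used, so depth is unknown and precision rests on 4 libraries per group. In the deposited table the mean of a gene is almost equal across 3 sets of libraries, namely replicate 1, replicate 2, and replicates 3 and 4 together, so an adjustment between these sets had been made. The range of the 3 set means had a median of 0.0102 on the log2 scale over tested genes, against a median difference of 0.21 between the means of replicates 3 and 4. Groups were compared with limma, unpaired, with Benjamini-Hochberg adjustment over 8801 genes and a threshold of 0.05, and a second limma fit, called the set fit here, took the 3 sets as a term. Of the 8801 genes, 212 (2.41%) passed the unpaired fit and 14 (0.159%) passed the set fit. Each factor was also compared by exact permutation, two-sided, over 70 assignments of the libraries, where p cannot go below 0.0286. Neither these assignments nor the unpaired limma fit take account of the sets, which the deposited values do not allow to vary freely. The p over the 24 assignments that exchange labels within sets is therefore given beside the permutation p. The p within sets cannot go below 0.0833, so no factor could reach 0.05 by it. Genes that mark macrophages and the sort, such as Adgre1 and Csf1r, were well expressed in both groups. None of 8 passed in limma, and 3 had an unadjusted p under 0.05, against 18.0% of all tested genes. Summed levels were 4100 to 4270 TPM in AeEMs and 3800 to 4100 TPM in AeMMs.

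Of the 9 factors, Maf alone passed the test and was lower in AeEMs, and none was higher. This is 1 of 9, against 2.41% of all genes in either direction, 1.16% lower and 1.25% higher. In the set fit 0 of 9 passed, against 0.159% of all genes. There the lowest unadjusted p were those of Maf (0.00555), Cebpb (0.00967) and Klf4 (0.0369), with no share over all genes to read them against. The log2 fold change, AeEM minus AeMM, was positive for 4 factors and negative for 5, with a median of -0.06 against -0.0064 over all tested genes. An unadjusted p under 0.05 was reached by 4 of 9, against 18.0% of all tested genes. The groups did not overlap in 1 of 9, against 12.2%. When limma weighted each library by its scatter about its group, 4 of 9 passed (Maf, Cebpb and Zeb2 lower, Spi1 higher), against 15.6% of all tested genes. The adjustment between sets constrains that scatter, so these weights are no measure of library quality.

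**Figure D1:**
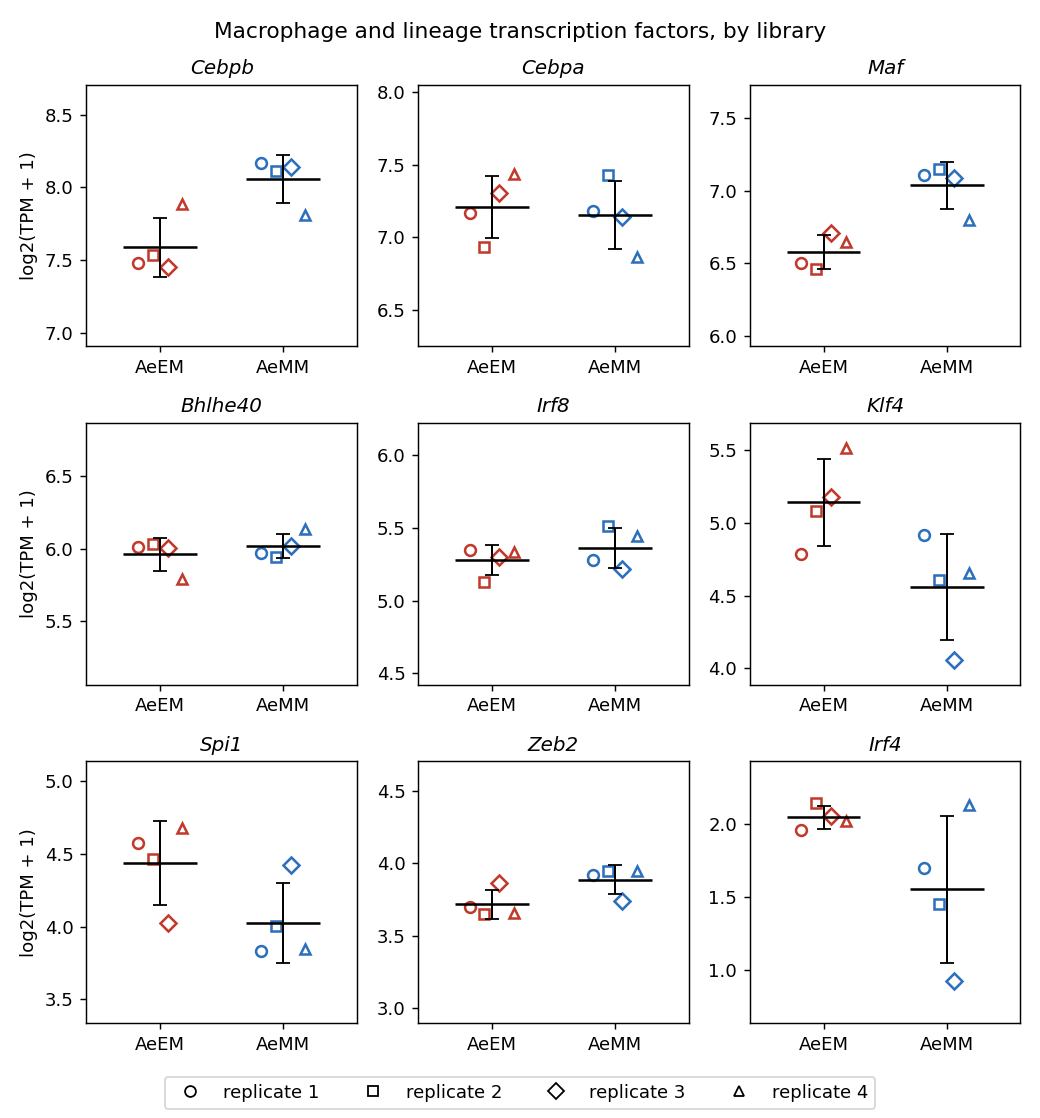
Level of each of the 9 factors in log2(TPM + 1), with AeEM libraries (red, left) and AeMM libraries (blue, right) as points whose shape gives the replicate number, and the mean and SD of 4 libraries as black lines. Every panel spans the same number of log2 units, and the 4 AeEM libraries lie below the 4 AeMM libraries without overlap in the Maf panel only.

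The levels of the 9 factors formed a steep order, the same at the top and at the bottom in both groups. Cebpb was highest, with mean levels of 193 TPM in AeEMs and 267 TPM in AeMMs, above 97.0% of tested genes. It was followed by Cebpa, Maf, Bhlhe40 and Irf8, and each of these stood below the one before it in 8 of 8 libraries. Klf4 stood below Irf8 in 7 of 8 libraries, and Spi1 below Klf4 in 7 of 8. Zeb2 stood below Spi1 in 6 of 8, that is in all 4 AeEM libraries but in only 2 of the 4 AeMM libraries, so the order of these neighbours did not hold beyond their spread. Irf4 was lowest in 8 of 8 libraries, with mean levels of 3.14 TPM in AeEMs and 2.07 TPM in AeMMs, and 26.3% of tested genes were lower.

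Spi1, which lies on chromosome 2 of mm10 from 91082390 to 91115756, had levels of 4.57, 4.46, 4.02 and 4.68 log2(TPM + 1) in AeEM replicates 1 to 4, against 3.83, 4.003, 4.43 and 3.84 in AeMM replicates 1 to 4. AeEM replicate 3 lay among the AeMM libraries, and AeMM replicate 3 lay among the AeEM libraries. The log2 fold change was 0.41 (standard error, SE, 0.18, adjusted p = 0.264, and 0.593 in the set fit). The exact permutation test gave p = 0.0571 for Spi1, and 0.167 within sets. By set, the difference was 0.74 (replicate 1), 0.46 (replicate 2) and 0.22 (replicates 3 and 4).

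Of the other ETS factors, 12 of 16 listed were tested and none passed in either direction, with log2 fold changes between -0.23 and 0.69. The upper end was Spib, a PU.1 relative of B cells and plasmacytoid dendritic cells, at 2.22, 2.02, 1.51 and 1.44 log2(TPM + 1) in AeEMs against 0.71, 0.89, 0.84 and 1.98 in AeMMs (adjusted p = 0.274). Its groups overlapped through AeMM replicate 4.

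Cebpb lies on chromosome 2 from 167688915 to 167690418 and Cebpa on chromosome 7 from 35119293 to 35121928. Cebpb had levels of 7.48, 7.53, 7.45 and 7.88 log2(TPM + 1) in AeEMs, against 8.17, 8.11, 8.14 and 7.81 in AeMMs. The groups were apart in replicates 1 to 3, and the libraries of replicate 4 crossed, with AeEM replicate 4 above AeMM replicate 4. For Cebpb the log2 fold change was -0.47 (SE 0.12, adjusted p = 0.0761, and 0.325 in the set fit), which did not pass. The exact permutation p was 0.0571, and 0.167 within sets. Without AeEM replicate 4 it passed, at an adjusted p of 0.0286 and a log2 fold change of -0.57. Exons of Cebpb share 312 bases with Tmem189 on the opposite strand, which stood at a mean of 13.4 TPM, and the use of strand in counting is not given in the sources used here.

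Cebpa had levels of 7.17, 6.93, 7.31 and 7.44 log2(TPM + 1) in AeEMs, against 7.18, 7.43, 7.14 and 6.86 in AeMMs. The groups lay over each other across their whole range. Its log2 fold change was 0.05 with a 95% interval from -0.26 to 0.37 (adjusted p = 0.891). By set, the difference was -0.02 (replicate 1), -0.50 (replicate 2) and 0.37 (replicates 3 and 4), so its sign differed between sets.

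The C/EBP factors bind the same sites, so the balance between them was also described, a quantity chosen after the values were seen and given with no test. Cebpb exceeded Cebpa within a library by 0.38 ± 0.19 in AeEMs and by 0.90 ± 0.15 in AeMMs (log2 difference, SD, n = 4 each). The 4 AeEM libraries spanned 0.15 to 0.60 and the 4 AeMM libraries 0.68 to 1.001, so they did not overlap. Cebpd, which is induced in acute responses, differed by 0.06 with overlapping groups (adjusted p = 0.897). Of the other C/EBP, PAR and ATF factors, 7 of 9 listed were tested and none passed. Nfil3, a repressor needed for several innate lineages, came nearest, with a log2 fold change of 0.46 (adjusted p = 0.0982) and no overlap between groups.

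Of the myeloid genes that PU.1 and C/EBP factors are known to activate, 13 were tested. In AeEMs 0 were higher and 2 were lower, against 1.16% lower of all tested genes. Mpo, Elane and Ctsg of the same list averaged under 1 TPM in both groups and were not tested. Prtn3, which encodes the granule protease proteinase 3, had levels of 4.88, 4.72, 4.61 and 4.87 log2(TPM + 1) in AeEMs, against 5.57, 5.79, 5.60 and 5.97 in AeMMs. It fell by 0.96 on the log2 scale (adjusted p = 0.00394, and 0.0605 in the set fit). Cybb, the catalytic subunit of the phagocyte oxidase, fell by 0.42 (adjusted p = 0.0259, and 0.250 in the set fit). The Cybb call was lost without AeEM replicates 1 or 2 (adjusted p = 0.0969 and 0.0943) or without AeMM replicates 1, 2 or 4 (0.0968, 0.0943 and 0.0588). Csf1r, the receptor of macrophage colony-stimulating factor, stood at a log2 fold change of -0.28 (adjusted p = 0.0818). Csf3r stood at -0.53 (adjusted p = 0.112), and the groups overlapped for neither gene.

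**Figure D2:**
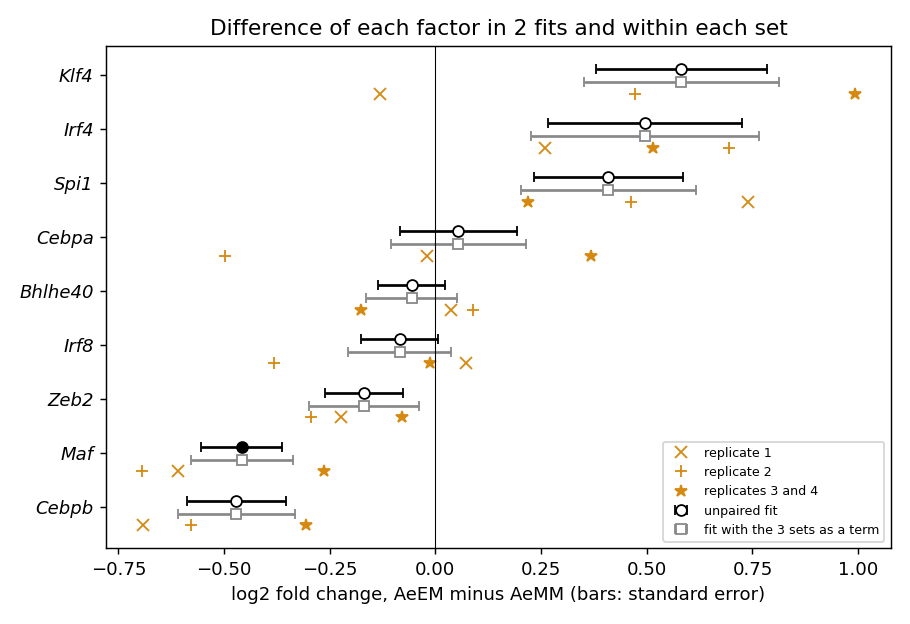
Log2 fold change of each factor, AeEM minus AeMM, with its SE in the unpaired limma fit (black circles, filled where the adjusted p is under 0.05) and in the set fit (grey squares), and the difference within each set (orange). Only Maf, at -0.46, is filled, and the differences within sets lie on both sides of 0 for Klf4, Cebpa, Bhlhe40 and Irf8.

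Maf, on chromosome 8 from 115682942 to 115707794, had levels of 6.50, 6.46, 6.71 and 6.65 log2(TPM + 1) in AeEMs, against 7.11, 7.15, 7.09 and 6.80 in AeMMs. Each AeEM library lay under every AeMM library, and AeMM replicate 4 came nearest to them. Maf fell by 0.46 in log2 units (SE 0.10, adjusted p = 0.0467, exact permutation p = 0.0286, and 0.0833 within sets, the smallest each can give), so that AeMMs held 1.37 times the AeEM level. By set, the difference was -0.61 (replicate 1), -0.69 (replicate 2) and -0.26 (replicates 3 and 4). With the 3 sets as a term the adjusted p was 0.274. The call was lost without AeEM replicates 1, 2 or 4 (adjusted p = 0.141, 0.136 and 0.0758) or without AeMM replicates 1, 2 or 3 (0.142, 0.136 and 0.0885), with no low-value filter (0.112) and with no variance trend (0.0776). Exons of Maf share 440 bases with Gm15655, an antisense gene not analysed here.

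Of the Maf, Bach and Nfe2 families, 7 of 9 other members were tested. In AeEMs 0 were higher and 1 was lower, against 1.16% lower of all tested genes. The lower member was Bach1, a haem-responsive repressor that competes with Nrf2, at 3.95, 3.99, 4.11 and 3.83 log2(TPM + 1) in AeEMs against 4.43, 4.37, 4.36 and 4.44 in AeMMs.
Bach1 fell by 0.43 on the log2 scale (adjusted p = 0.0363, and 0.314 in the set fit). The Bach1 call was lost when any library but AeEM replicate 3 was left out (adjusted p of 0.126, 0.110 and 0.0676 without AeEM replicates 1, 2 and 4, and 0.133, 0.109, 0.0575 and 0.0696 without AeMM replicates 1 to 4). Red cell transcripts, mostly haemoglobin chains, summed to 7660 to 12700 TPM in AeEMs and 4210 to 10500 TPM in AeMMs. In limma 0 of 5 were called and 3 had an unadjusted p under 0.05, against 18.0% of all tested genes. All 5 tested transcripts had a positive log2 fold change, with a median of 0.75. Their part in the Bach1 difference was not tested.

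Of 9 genes linked to c-MAF in macrophages, 0 were higher and 1 was lower in AeEMs, with log2 fold changes from -0.70 to 0.87. The gene that fell was Lyve1, the hyaluronan receptor, by 0.70 (adjusted p = 0.00343, and 0.0605 in the set fit). Cd163 and Timd4, receptors of resident macrophages, had positive log2 fold changes of 0.50 and 0.87 that did not pass (adjusted p = 0.0919 and 0.0959). The list thus held differences of both signs.
Tomm7 and Rpl38 were among the 3 genes whose pattern over the 8 libraries was most like that of Maf, out of 3102 candidates of at least 10 TPM. Their root-mean-square difference from Maf, after each gene was scaled to its own mean and SD, was 0.14 for Tomm7 and 0.16 for Rpl38. Tomm7 encodes a subunit of the mitochondrial import pore and Rpl38 a ribosomal protein. The log2 fold change was -0.32 for each, and neither passed the test (adjusted p = 0.0919 and 0.115).

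Irf8 lies on chromosome 8 from 120736358 to 120756694 and Irf4 on chromosome 13 from 30749226 to 30766976. Irf8 had levels of 5.35, 5.13, 5.30 and 5.33 log2(TPM + 1) in AeEMs, against 5.28, 5.51, 5.22 and 5.44 in AeMMs. The groups overlapped, and the log2 fold change was -0.08 with a 95% interval from -0.29 to 0.12 (adjusted p = 0.698).

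Irf4 had levels of 1.96, 2.14, 2.06 and 2.03 log2(TPM + 1) in AeEMs, against 1.70, 1.45, 0.92 and 2.13 in AeMMs. The AeEM libraries were tightly grouped (SD 0.08), whereas the AeMM libraries were spread (SD 0.51), with AeMM replicate 3 lowest and AeMM replicate 4 inside the AeEM range. The log2 fold change of 0.50 (SE 0.23) did not pass (adjusted p = 0.302, and 0.628 in the set fit; exact permutation p = 0.114, and 0.250 within sets). Its sign was positive in each set, at 0.26, 0.69 and 0.51. At about 1 to 3 TPM the scale understates the change of such a low gene. Within a library Irf4 minus Irf8 was -3.23 ± 0.17 in AeEMs and -3.81 ± 0.45 in AeMMs (log2 difference, SD, n = 4 each), with overlap. Of the other IRF genes, 6 of 7 were tested and none passed, within -0.25 to 0.15.

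Klf4, on chromosome 4 from 55527143 to 55532466, had levels of 4.79, 5.08, 5.18 and 5.52 log2(TPM + 1) in AeEMs, against 4.92, 4.61, 4.06 and 4.66 in AeMMs. The overlap came from replicate 1, where the AeMM library was above the AeEM library. The log2 fold change of 0.58 (SE 0.20), the highest of the 9, did not pass (adjusted p = 0.175, and 0.480 in the set fit; exact permutation p = 0.0571, and 0.167 within sets). By set, the difference was -0.13 (replicate 1), 0.47 (replicate 2) and 0.99 (replicates 3 and 4).
Of the other KLF genes, 8 of 13 were tested and none passed. Klf2, which restrains inflammatory activation, leaned the other way, at 7.70, 7.44, 8.12 and 7.38 log2(TPM + 1) in AeEMs against 8.28, 8.51, 8.21 and 8.20 in AeMMs. Its log2 fold change of -0.64 had an adjusted p of 0.0725, and its groups did not overlap. Klf4 minus Klf2 was -2.52 ± 0.51 in AeEMs and -3.74 ± 0.36 in AeMMs (log2 difference within a library, SD, n = 4 each), with no overlap, a pair chosen after the values were seen.

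Genes of the MHC class II+ serous macrophages and type 2 dendritic cells that depend on IRF4 and KLF4 were mostly higher in AeEMs. Of 10 tested, 9 were higher and 0 were lower in AeEMs, against 1.25% higher of all tested genes. In the set fit 4 passed, namely Mgl2, Cd209a, Cd74 and H2-Eb1. This list was chosen with earlier results of these data known, so its count is no test of Irf4 or Klf4. Cd209a, a C-type lectin, had levels of 5.83, 6.29, 6.60 and 5.21 log2(TPM + 1) in AeEMs, against 2.58, 2.02, 3.17 and 1.56 in AeMMs, and rose by 3.65 (adjusted p = 0.00294, and 0.0326 in the set fit). Retnla, an alternative activation gene, rose by 2.15 (adjusted p = 0.0138, and 0.0770 in the set fit). Among 6 tested alternative activation genes linked to KLF4 and C/EBPβ, Retnla was higher and Chil3, a chitinase-like protein, was lower in AeEMs. Of all tested genes 1.25% were higher and 1.16% lower. Chil3 fell by 2.16 (adjusted p = 0.0434, and 0.203 in the set fit), and its call was lost in all 8 fits that left out a library, at adjusted p between 0.0514 and 0.0884. Dendritic cell markers were read beside these genes, though Cd209a and Itgax stand in both lists. The 9 dendritic cell markers summed to 45.0 to 107 TPM in AeEMs and 6.68 to 13.9 TPM in AeMMs. Without Cd209a they summed to 8.98 to 15.9 TPM and 2.91 to 6.60 TPM. That sum still holds Itgax, at a mean of 5.44 TPM in AeEMs and 2.08 TPM in AeMMs. Of the 3 markers tested, Cd209a and Itgax rose, which repeats the calls of the list above. Siglech stayed under 0.5 TPM in every library, and Zbtb46, Flt3, Xcr1 and Clec9a averaged under 1 TPM in both groups. Ccr7, the receptor of migrating dendritic cells, averaged 3.52 TPM in AeEMs and 0.578 TPM in AeMMs, with overlap (adjusted p = 0.145). Dpp4 averaged 1.19 TPM in AeEMs and 0.300 TPM in AeMMs, with no overlap, and was not tested under the filter. The part of such cells in the levels of Irf4 and Klf4 was not tested, and in bulk samples fewer cells of a type and less RNA per cell cannot be told apart.
Of 5 tested genes of IRF8-dependent cells, 3 were higher and 0 were lower in AeEMs, against 1.25% higher of all tested genes. They were Naaa by 0.75, Id2 by 0.66 and Batf3 by 0.54 (adjusted p = 0.0259, 0.0106 and 0.0245, and 0.177, 0.0912 and 0.268 in the set fit). Il18 stood at -0.16 and Cst3 at 0.04, and neither passed (adjusted p = 0.407 and 0.832). Of the untested genes, Xcr1 averaged 0.888 TPM in AeEMs and 0.522 TPM in AeMMs, and Clec9a 0.606 and 0.782 TPM. Il12b stayed under 0.5 TPM in every library. The Naaa and Batf3 calls were each lost in 5 of the 8 fits that left out a library, at adjusted p of up to 0.0847 and 0.0979. Id2, named here and below, stands in both lists. These genes too were listed with earlier results of these data known.

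Zeb2, on chromosome 2 from 44983632 to 45117395, had levels of 3.70, 3.65, 3.87 and 3.66 log2(TPM + 1) in AeEMs, against 3.92, 3.94, 3.74 and 3.94 in AeMMs. The groups were apart but for replicate 3, whose libraries crossed. Its log2 fold change of -0.17 (SE 0.09) did not pass (adjusted p = 0.384; exact permutation p = 0.0571, and 0.167 within sets). Exons of Zeb2 share 653 bases with its antisense gene Zeb2os, which stood at a mean of 3.799 TPM.
Of Zeb1, the E proteins and the Id proteins, 5 of 7 were tested. In AeEMs 1 was higher and 0 were lower, against 1.25% higher of all tested genes. Id2, which blocks E proteins and is itself repressed by ZEB2 in dendritic cells, had levels of 8.17, 8.34, 8.31 and 8.03 log2(TPM + 1) in AeEMs, against 7.55, 7.42, 7.75 and 7.52 in AeMMs. Each AeEM library exceeded every AeMM library. Id2 rose by 0.66 (SE 0.09, adjusted p = 0.0106, and 0.0912 in the set fit), and it passed whichever library was left out.

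Bhlhe40, on chromosome 6 from 108660629 to 108666925, was among the steadiest of the 9, at 6.01, 6.03, 6.01 and 5.79 log2(TPM + 1) in AeEMs against 5.97, 5.94, 6.02 and 6.13 in AeMMs. The groups overlapped, and the log2 fold change was -0.06 with a 95% interval from -0.23 to 0.12 (adjusted p = 0.780). Its paralog Bhlhe41, a related repressor, passed the test. Bhlhe41 had levels of 3.999, 3.95, 4.19 and 3.96 log2(TPM + 1) in AeEMs, against 4.85, 4.86, 4.63 and 4.79 in AeMMs, with no overlap. It fell by 0.76 (SE 0.09, adjusted p = 0.00441, and 0.0712 in the set fit), and it passed whichever library was left out.
Bhlhe41 minus Bhlhe40 within a library was -1.94 ± 0.13 in AeEMs and -1.23 ± 0.16 in AeMMs (log2 difference, SD, n = 4 each), with no overlap, again a pair chosen after the values were seen. Of the other bHLH and bHLH-ZIP factors, 13 of 15 were tested. In AeEMs 0 were higher and 1, Bhlhe41, was lower, against 1.16% lower of all tested genes. Among 17 proliferation genes, the process that BHLHE40 favours in large peritoneal macrophages, 1 passed as higher and 0 as lower. Of all tested genes 1.25% passed as higher. All 17 proliferation genes had a positive log2 fold change, with a median of 0.35 against -0.0064 over all tested genes. An unadjusted p under 0.05 was reached by 8 of 17, against 18.0% of all tested genes. Rrm2, a subunit of ribonucleotide reductase, stood at 4.23, 3.84, 4.41 and 4.47 log2(TPM + 1) in AeEMs, against 2.52, 2.93, 1.11 and 3.50 in AeMMs, with no overlap and an adjusted p of 0.0800. The gene that passed was Mcm5, a subunit of the replicative helicase, which rose by 0.98 (adjusted p = 0.0185, and 0.155 in the set fit). The Mcm5 call was lost without AeEM replicate 1 (adjusted p = 0.0654) and without AeMM replicate 1 (0.0589).

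**Figure D3:**
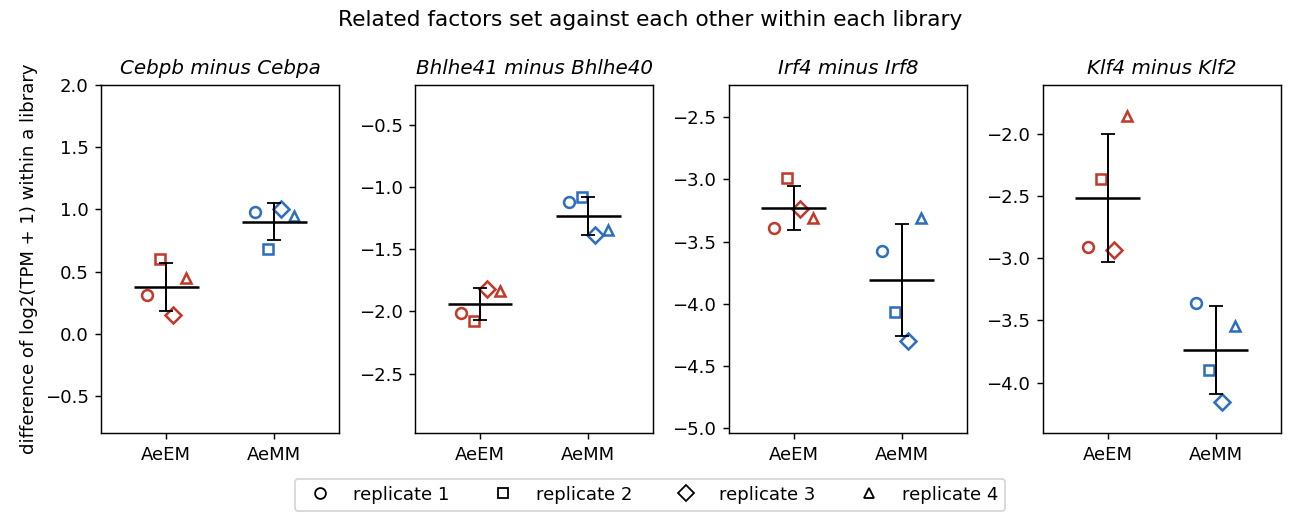
Difference of log2(TPM + 1) between related factors within each library, with AeEM (red, left) and AeMM (blue, right) libraries as points and the mean and SD of 4 libraries as black lines. The groups do not overlap for Cebpb minus Cebpa, Bhlhe41 minus Bhlhe40 or Klf4 minus Klf2, and they overlap for Irf4 minus Irf8.

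Over all 95 related factors, 69 were tested, of which 1 was higher (Id2) and 2 were lower (Bhlhe41 and Bach1) in AeEMs. This is 3 of 69 against the 2.41% of all tested genes, and the median log2 fold change was 0.0046 against -0.0064. An unadjusted p under 0.05 was reached by 13 of 69 in the unpaired limma fit, against 18.0% of all tested genes. In the set fit 0 passed, against 0.159% of all tested genes. Among the other factors of myeloid development, 11 of 19 were tested and none passed. Stat5a, which transmits growth factor signals, was higher in all 4 AeEM libraries than in any AeMM library, at a log2 fold change of 0.60 (adjusted p = 0.0795).

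**Figure D4:**
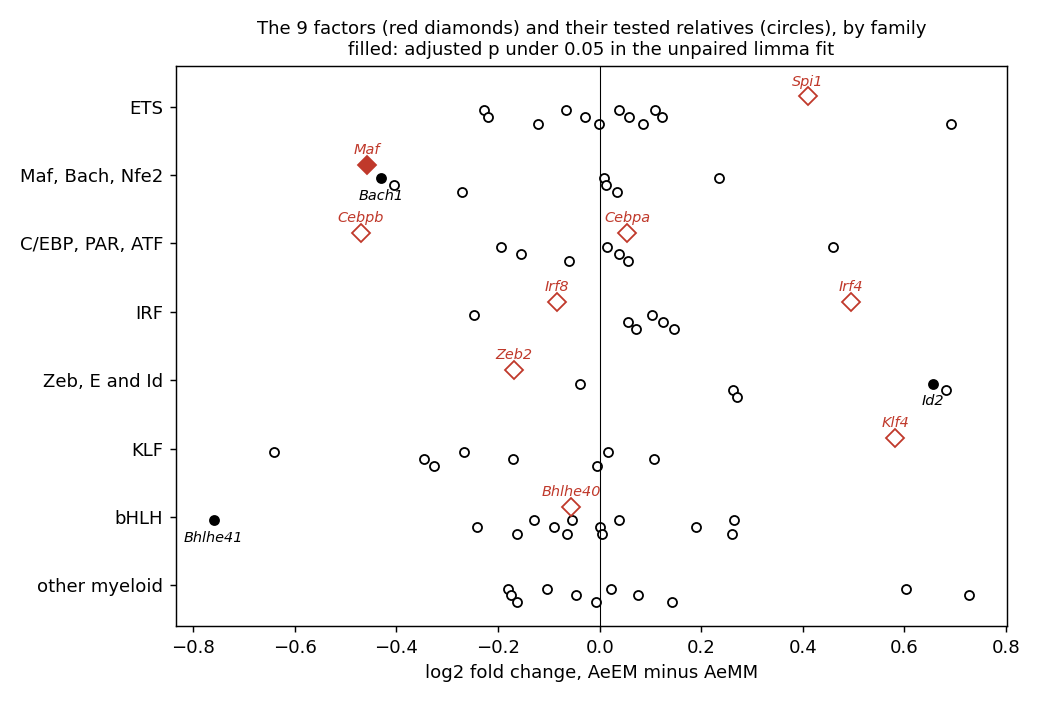
Log2 fold change, AeEM minus AeMM, of the 9 factors (red diamonds) and of the 69 tested related factors (circles), by family, filled where the adjusted p is under 0.05. The filled marks are Maf, Bach1 and Bhlhe41 below 0 and Id2 above 0.

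Genes of cells that the gate should hold out were also read beside these factors. Ly6c2, which encodes the Ly-6C of monocytes, averaged 1.25 TPM in AeEMs and 5.17 TPM in AeMMs. The monocyte list as a whole summed to 192 to 283 TPM in AeEMs and 174 to 226 TPM in AeMMs. Of its 7 tested genes, 0 were higher and 1, Ly6c2, was lower in AeEMs, against 1.16% lower of all tested genes. Neutrophil markers summed to 24.1 to 29.0 TPM in AeEMs and 35.6 to 50.9 TPM in AeMMs, a sum carried by S100a8 (mean 11.3 TPM in AeEMs and 24.3 TPM in AeMMs) and Csf3r (9.15 and 13.7 TPM). Mmp9 of the same list leaned the other way, at a mean of 5.82 TPM in AeEMs and 3.90 TPM in AeMMs (adjusted p = 0.193), and Retnlg, Cxcr2, Ngp and Ltf stayed under 0.5 TPM in every library. T and NK cell markers summed to 0.655 to 4.29 TPM in AeEMs and 7.56 to 18.9 TPM in AeMMs, where Nkg7 made up most of it, while Cd3e, Ncr1 and Gzmb stayed under 0.5 TPM in every library. Ly6c2, S100a8 and Nkg7 each passed the unpaired fit as lower in AeEMs, and none of them passed the set fit. The part of cells outside the gate in the differences of Maf, Cebpb and Prtn3 was not tested. Immediate early genes, which rise when cells are handled, summed to 1200 to 1380 TPM in AeEMs and 1200 to 1350 TPM in AeMMs. In limma 0 of 14 were called and 2 had an unadjusted p under 0.05, against 18.0% of all tested genes. None of the 5 tested B and plasma cell markers or of the 2 tested epithelial and tumour markers passed in limma. An unadjusted p under 0.05 was reached by 0 of either, against 18.0% of all tested genes.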

How the data were processed

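Bulk RNA from sorted AeEMs and AeMMs was analysed in 8 libraries, 4 per group. Libraries had been made by Smart-seq2, and the authors trimmed reads (fastp), aligned them to mm10 (STAR 2.7.2a) and assigned them to genes (Subread featureCounts). The deposited values, named TPM, are on a log2 scale, log2(TPM + 1), and had been adjusted between 3 sets of libraries. How the authors made the TPM, the log and the adjustment is not given in the sources used here. Values were used as deposited and back-transformed only for filters, sums and alternatives. The tests were planned for TPM values not yet on a log scale.

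AeEM minus AeMM was fitted with limma 3.58.1 (R 4.3.3), unpaired and with the variance trended on the mean. It covered the 8801 genes that averaged 1 TPM or more over the libraries. The set fit added the 3 sets as a term. Single factors had an exact permutation test (numpy 2.4.6). Fits were tested on simulated data. Depth is unknown, and precision rests on 4 libraries per group. The labels number the 4 libraries of each group as biological replicates and do not name the mouse of any. The paper gives 4 mice and 4 runs, so AeEM and AeMM libraries may share mice, and which do is not stated. P-values measure the spread between these libraries after the adjustment, and the unpaired fit takes no account of the sets. Positions came from GENCODE M21 and promoters from RefSeq (GRCm38.p6).

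The 9 factors, the family, target and marker lists and the named genes were chosen with earlier results of these data known. Named were the 9 factors, up to 4 genes past the threshold in each direction of each related or target list, marker lists by their sums, and the 3 genes of at least 10 TPM most like a factor that passed, of which 1 is not reported here. Spib, Cebpd, Nfil3, Stat5a, Klf2, Cd163, Timd4, Rrm2 and Csf1r, and single marker genes, were chosen after their values were seen. The alternatives took a pseudocount of 0.1 or 5, no low-value filter or one at 5 TPM, quantile or size-factor scaling, and other choices of the trend, the library weights, the replicate block, the threshold and the libraries left out. Leaving out libraries in the permutation test, exchanging labels within sets, the marker sum without Cd209a and the differences between related factors were added after seeing the data.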

Additional observations from a re-analysis of the deposited data

Results flagged for a closer look

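In 18 groups of 4 libraries (9 factors in 2 groups), 3 held a library far from the other 3 by Dixon's ratio. Chance flags about 1 in 20 groups of values that vary freely, which values adjusted between sets do not. Cebpb in AeMM replicate 4 was at 7.81 log2(TPM + 1), with the other AeMM libraries at 8.11 to 8.17 (ratio 0.841). Zeb2 in AeMM replicate 3 was at 3.74, with the others at 3.92 to 3.94 (ratio 0.873). Bhlhe40 in AeEM replicate 4 was at 5.79, with the others at 6.01 to 6.03 (ratio 0.895). The 3 flagged values came from 3 different libraries, all in the set of replicates 3 and 4.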

How the results depend on the processing

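The count of called factors, 1 in the unpaired fit, was 0 with the 3 sets as a term, without a filter, without a trend, and when a log2 change of 1 in size was also required, and 4 with array weights (Maf, Cebpb, Spi1 and Zeb2, against 15.6% of all genes). Leaving out each library gave 0 to 1. Over 18 alternatives the Maf call held in 8, its log2 fold change staying negative. It stood at -0.46 with the 3 sets, without a filter and without a trend, and ran from -0.54 to -0.42 over the libraries left out. With array weights Spi1 passed at 0.55, Cebpb at -0.58 and Zeb2 at -0.23. Cebpb ran from -0.57 to -0.43 over the libraries left out. Signs turned for Cebpa (-0.151 with array weights, -0.0206 without AeEM replicate 4, -0.0428 without AeMM replicate 4, and -0.0428 to 0.15 over the libraries left out) and for Bhlhe40 (0.0222 with array weights). The cause was not tested.

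The 212 genes called became 14 with the 3 sets, 136 without a trend, 1376 with array weights (540 higher, 836 lower), 45 when a log2 change of 1 in size was also required, and 73 to 205 over the libraries left out. Related factors, 3 called, became 0 with the 3 sets, 13 with array weights, 0 at the larger change and 2 to 4 over the libraries left out. Target genes, 17 called, became 4, 29, 5 and 12 to 18 in the same order. The permutation count, 1, ran from 0 to 2 over the libraries left out, and was 0 with labels exchanged within the 3 sets, where 0.05 is out of reach, both chosen after seeing the data.

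With the replicate number as a block, 5 genes were called (3 higher, 2 lower), with 0 of the 9 factors, 0 related factors and 3 target genes. Maf stood at -0.46 with an adjusted p of 0.272 under the block. The numbers share no stated mouse or run, and the adjustment of the 3 sets makes a check of the pairing void. Depth is unknown, so what it limits cannot be given.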
